A study of Mus musculus with 2 samples.

Results

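The clustered protocadherin genes lie in tandem on mouse chromosome 18 and form the Pcdha, Pcdhb and Pcdhg subfamilies. Members were all protein-coding genes of the GENCODE M21 annotation on that chromosome whose symbol begins with Pcdha, Pcdhb or Pcdhg, which gave 57 of the 21938 protein-coding genes, with 14 in Pcdha, 22 in Pcdhb and 21 in Pcdhg. Nuclei of whole urinary bladder from male B6CASTF1/J mice aged 36 days, hybrids of C57BL/6J and CAST/EiJ, were treated with DNase I, an enzyme that cuts DNA where it is open, and the cut fragments were sequenced. There were 2 libraries, which the labels give as replicates 1 and 2, in 1 group with no treatment and no contrast. Every statement below is therefore a description of these 2 libraries, with no test. The bladder was not sorted, so fewer cells of a type and less opening per cell cannot be told apart.

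Clustered protocadherins are cell-surface proteins of the cadherin superfamily that bind copies of themselves on neighbouring cells. Each gene begins with its own variable exon, which has its own promoter and encodes the extracellular and membrane-spanning parts. In Pcdha and Pcdhg the variable exon is spliced to constant exons shared by the whole subfamily, while Pcdhb genes have none. Neurons are known to switch on a small, largely random set of the variable promoters, and the resulting surface code serves self-recognition of their branches. The architectural protein CTCF, with the cohesin ring, brings a promoter to distal enhancers in these cells, and DNA methylation keeps the others silent. The C-type genes at the ends of Pcdha and Pcdhg (Pcdhac1, Pcdhac2, Pcdhgc3, Pcdhgc4 and Pcdhgc5) are known to be expressed more uniformly than the other 52.

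The deposited peak lists held 38674 peaks in replicate 1 and 47661 in replicate 2 in the shorter of each library's lists, and 63793 and 79598 in the longer. A base with a deposited false discovery rate (FDR) no higher than 0.001 lay in 100% of the peaks of the shorter lists. For the longer lists the limit was 0.05. Start peaks of bladder markers were present at 8 of 10 urothelial genes in both replicates, including the uroplakin genes Upk1a, Upk1b, Upk2 and Upk3a. Both replicates also held them at 3 of 8 smooth muscle genes, 1 of 5 fibroblast genes and 1 of 6 glial genes. The share was 80% for urothelial, 37.5% for smooth muscle, 20% for fibroblast and 16.7% for glial genes, against 50.9% of all protein-coding genes. Of 10 neuronal marker genes, Elavl4 and Nefl had a start peak in both replicates, Nefm in replicate 1 alone and the other 7 in neither. Their part in the results below was not tested.

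Of the 57 clustered protocadherins, 1 had a peak within 500 bases of its variable-exon start in replicate 1, 1 in replicate 2 and 1 in both. The same window held a peak at 52.5% of all protein-coding genes in replicate 1, 53.3% in replicate 2 and 50.9% in both. The single member was Pcdhgc3 in each library. In the longer lists, 3 members had a start peak in replicate 1 (Pcdhac2, Pcdhgb7 and Pcdhgc3) and 3 in replicate 2 (Pcdha8, Pcdhac2 and Pcdhgc3), against 57.7% and 58% of protein-coding genes. Both replicates held one at 2 members, Pcdhac2 and Pcdhgc3, against 55.9% of protein-coding genes, and 53 members had none in either library. Among the higher 50% of peaks of the shorter lists Pcdhgc3 was again the 1 member, against 43.6% of protein-coding genes in replicate 1, 46% in replicate 2 and 42.9% in both. All 14 Pcdha genes, all 22 Pcdhb genes and 20 of the 21 Pcdhg genes thus lacked a start peak in the shorter list.

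**Figure D1:**
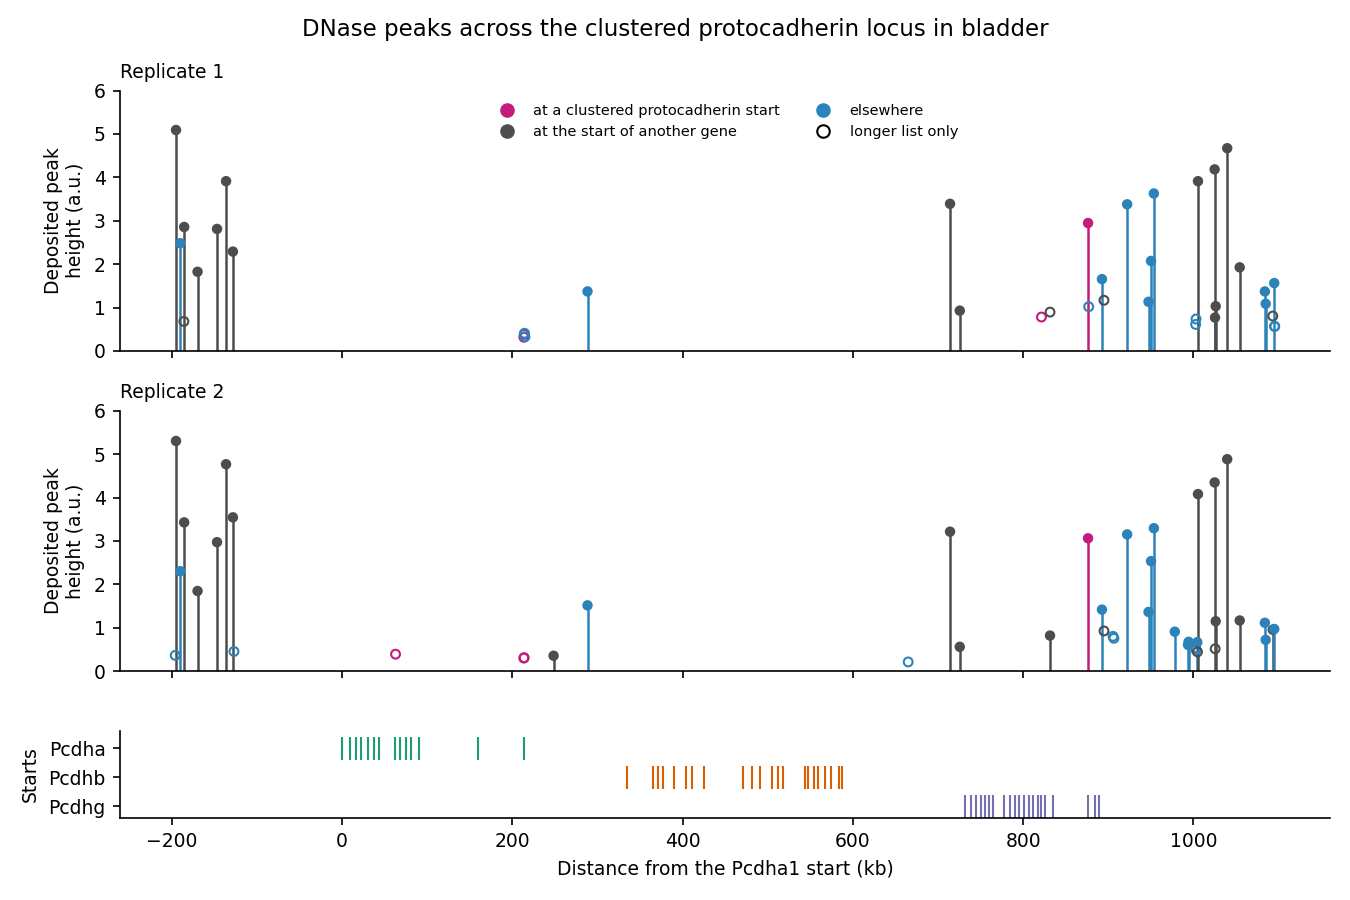
Height of each deposited peak (vertical axis, arbitrary units as deposited) by distance from the Pcdha1 start (horizontal axis, kb) in replicate 1 (top) and replicate 2 (middle), with variable-exon starts as ticks below. Filled points are in the shorter list and open points in the longer list alone. The single filled point at a member start is Pcdhgc3, at 2.95 in replicate 1 and 3.06 in replicate 2.

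Pcdhgc3, a C-type gene whose transcripts are also known from tissues outside the nervous system, had a start peak 2.95 high in replicate 1 and 3.06 high in replicate 2, a mean of 3.01 ± 0.0813 (SD, n = 2). The height is the deposited signal of a peak on a scale that no header states. It is therefore set beside its rank among all start peaks of the same library, which was the 68.6th percentile in replicate 1 and the 72.9th in replicate 2 (70.8 ± 3.10, SD, n = 2). The Pcdhgc3 promoter was thus open to an extent above the median start peak in both libraries. The peak lay at chr18:37806201-37806500 (mm10) in replicate 1 and at chr18:37806181-37806480 in replicate 2, over the gene start at position 37806364. The longer list of replicate 1 held a further pair of overlapping peaks inside the Pcdhgc3 variable exon, the higher 1.02 high at chr18:37806941-37807160, where replicate 2 had none.

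The other C-type genes differed from Pcdhgc3. Pcdhac2, the last Pcdha gene, had start peaks in the longer lists alone, with a highest height of 0.385 in replicate 1 and 0.313 in replicate 2. In replicate 1 such low peaks continued along its variable exon, with heights of 0.408 at chr18:37144285-37144440 and 0.329 at chr18:37144839-37144942. These heights are close to the low end of the longer lists, whose 5th percentile was 0.374 in replicate 1 and 0.304 in replicate 2. Pcdhac1, Pcdhgc4 and Pcdhgc5 had no start peak in either list of either library. Pcdhgc4 and Pcdhgc5 start just downstream of Pcdhgc3, and no base of their windows had an FDR of 0.05 or less.

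A graded view came from the per-site FDR of the cut rate, which the authors deposited for each stretch of bases down from 0.05. At least 1 base at or below 0.05 was found in the start window of 4 members in replicate 1 and 6 in replicate 2, with 3 in both and 50 in neither. Among all protein-coding genes the shares were 58.7% in replicate 1, 59.3% in replicate 2 and 57.1% in both. At 0.001 or below, Pcdhgc3 alone remained in each library, against 53.7% and 54.5% of protein-coding genes, and 52.2% in both. Every peak of the shorter lists holds a base at 0.001 or below, and every peak of the longer lists one at 0.05 or below. These counts therefore partly repeat the counts of start peaks. At the limit of 0.05, the median member had 0 such bases in its window in either replicate, while the median over all protein-coding genes was 373 in replicate 1 and 390 in replicate 2.

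Pcdhgc3 had 759 bases at or below 0.05 in replicate 1 and 708 in replicate 2, near the medians of 780 and 806 over the other genes with a start peak in both libraries. Pcdhac2 had 320 bases in replicate 1 and 189 in replicate 2, with lowest FDR values of 0.00466 and 0.0241. Its window was therefore above the detection limit in both libraries, though below the median of protein-coding genes. Pcdhgb7, a variable gene near the downstream end of Pcdhg, had 131 bases in replicate 1 and 1 in replicate 2, with lowest FDR values of 0.00742 and 0.0480. Its single peak, 0.782 high at chr18:37751541-37751640, was in the longer list of replicate 1. Pcdhgb7 thus had a start signal in 1 library and was at the detection limit in the other.

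The remaining signals were each in 1 library. Pcdhac1 had 28 bases in replicate 1 with a lowest FDR of 0.0475 and none in replicate 2. Pcdhb17 had 48 bases, Pcdha8 33 and Pcdhgb1 16 in replicate 2, with lowest values of 0.0219, 0.0229 and 0.0410, and none in replicate 1. The smallest step between peak heights was 1.27 times finer in replicate 2, the library with more peaks. Of the first and last genes of each subfamily, Pcdha1, Pcdhb1, Pcdhb22, Pcdhga1 and Pcdhgc5 had no listed base in either replicate, and Pcdhac2 was the exception.

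**Figure D2:**
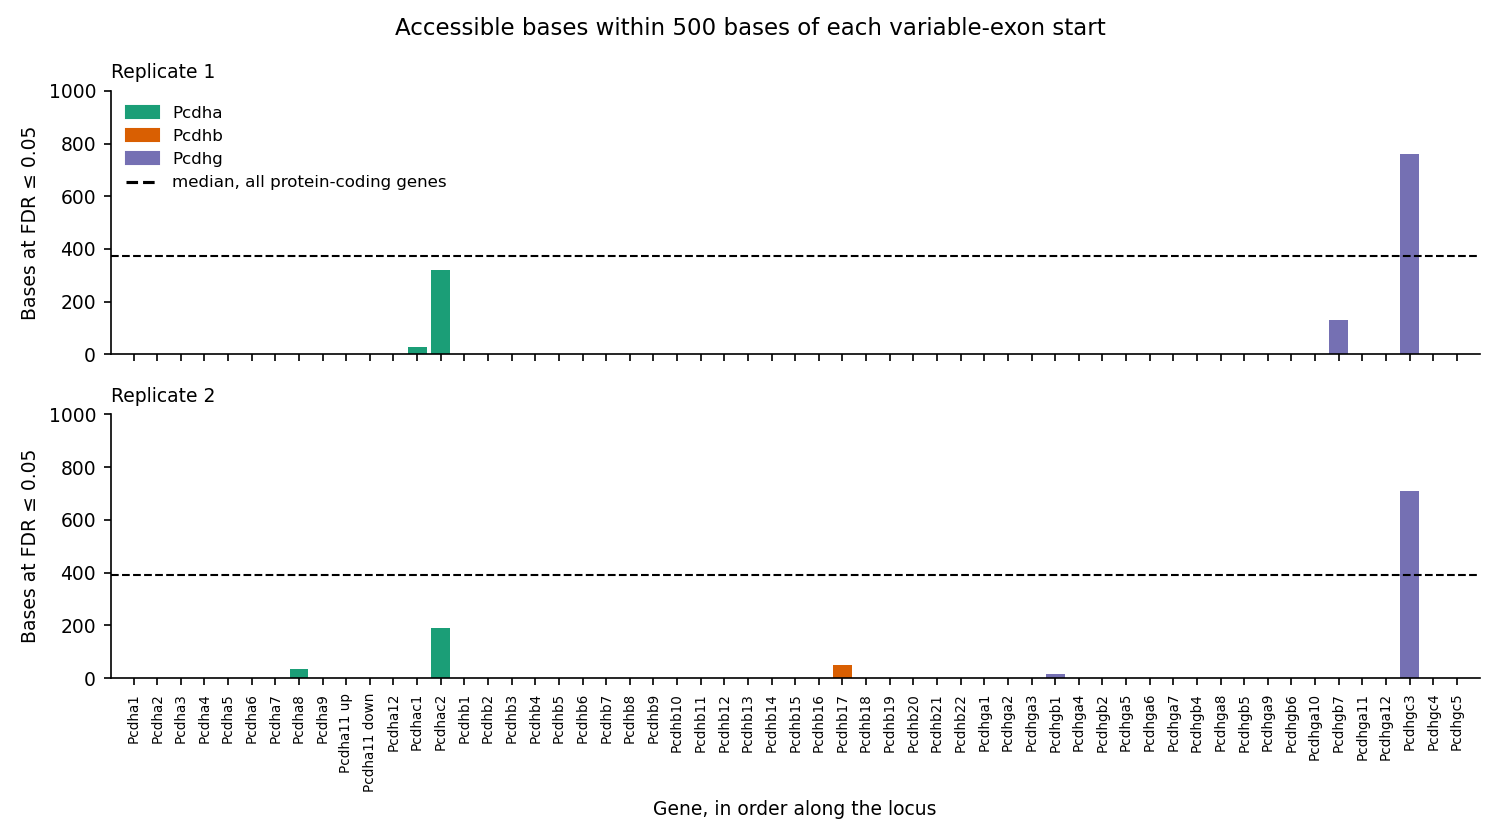
Number of bases at a per-site FDR of at most 0.05 (vertical axis) in the window of 500 bases on either side of each variable-exon start, in genomic order (horizontal axis), in replicate 1 (top) and replicate 2 (bottom). Dashed lines mark the medians over all protein-coding genes, 373 and 390, which Pcdhgc3 alone exceeds.

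Pcdhgb8 gave a further signal inside the Pcdhg cluster. The annotation calls it a polymorphic pseudogene, so it was not counted as a member. Its start window held a peak 0.896 high in replicate 1 (longer list) and 0.821 in replicate 2 (both lists), and its lowest FDR was 0.00403 and 0.000131. In both libraries 4 footprints, short stretches protected from cutting within open DNA, had identical positions, for example chr18:37761648-37761660. The start of Pcdhgb8 was thus listed as open in both libraries, at the shorter list's threshold in replicate 2 alone.

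Across the clusters as a whole, peaks of the shorter lists were fewer per length than over the genome, and the flanks held more. From the Pcdha1 start to the end of Pcdhg, over 911.69 kb, there were 0.548 peaks per 100 kb in replicate 1 and 0.768 in replicate 2, against 1.46 and 1.80 over the genome. The 200 kb before Pcdha1 held 4 and 3.5 peaks per 100 kb, and the 200 kb after Pcdhg held 6.5 and 8.5. The Pcdhg cluster differed from the span as a whole. It held 1.11 peaks per 100 kb in replicate 1 and 1.67 in replicate 2 in the shorter lists, and 3.89 and 3.33 in the longer lists, against 2.41 and 3.01 over the genome in the longer lists. Of the 18 other protein-coding genes with a start in the locus, flanks included, 12 had a peak at their start in both replicates. These included Tmco6 (height 5.09 in replicate 1 and 5.30 in replicate 2), Zmat2 (3.91 and 4.77) and Ndufa2 with Ik (2.86 and 3.43) before Pcdha. After Pcdhg were Diaph1 (3.91 and 4.08), Hdac3 with Rell2 (4.18 and 4.35) and Fchsd1 (4.67 and 4.88). The 6 without one were Dnd1, Slc25a2, Arap3 and 3 read-through genes, Gm42416, Gm37013 and Gm37388, that start among the Pcdha variable exons. Arap3 had a peak at another annotated start, 1.93 high in replicate 1 and 1.17 in replicate 2.

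The Pcdhb cluster was the emptiest. Across its 259.542 kb and 22 members, neither list of either library held a peak, and the bases at an FDR of 0.05 or less numbered 0 in replicate 1 and 48 in replicate 2, all of them at Pcdhb17. In the shorter lists it lay in a peak-free stretch of 425.64 kb in replicate 1 (chr18:37218461-37644100) and 425.66 kb in replicate 2, where the longer list of replicate 2 held 1 peak, 0.214 high, outside the cluster. The stretch ended at the start of Taf7, a subunit gene of the general transcription factor TFIID. That stretch held 23 protein-coding starts, the 22 Pcdhb genes and Slc25a2. More were held by 42 of the 37297 peak-free stretches of replicate 1, and by 36 of 46398 in replicate 2. By length alone it was less unusual, since 967 stretches in replicate 1 and 822 in replicate 2 were longer. All 14 Pcdha starts lay in another stretch, of 416.22 kb in replicate 1 and 376.589 kb in replicate 2. The Pcdhg starts before Pcdhgc3 numbered 18, and all fell in 1 stretch of 150.46 kb in replicate 1, while in replicate 2 the Pcdhgb8 peak split off the last of them.

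Away from member starts, 25 peaks in replicate 1 and 30 in replicate 2 lay between 200 kb before Pcdha1 and 200 kb after Pcdhg, and 24 of those in replicate 1 overlapped one in replicate 2. Most were in the flanks. Between the Pcdha and Pcdhg ends, 4 peaks that were not at member starts were held by both libraries, and 2 of these were at starts of other genes. Taf7 was 3.39 high in replicate 1 and 3.21 in replicate 2, and the long non-coding gene 3222401L13Rik, which starts before Pcdhga1, was 0.930 and 0.563. The other two lay away from any annotated start.

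The first lay at chr18:37218281-37218460, 30620 bases after the end of Pcdha and before Pcdhb1. Its height was 1.37 in replicate 1 and 1.52 in replicate 2 (1.44 ± 0.103, SD, n = 2), at percentiles 46.7 and 64.2 of all peaks. It lay within the 3 read-through genes and in no member. A wide footprint of 29 bases in replicate 1 (chr18:37218316-37218344) and 35 bases in replicate 2 (chr18:37218315-37218349) was at nearly the same place in both. It covered 7 of 9 bases in replicate 1 and all 9 in replicate 2 of a match, on the minus strand, to TTCAGCACC, one part of the element bound by the neuronal gene repressor REST. This word was found in the central 200 bases of 0.621% of all peaks of replicate 1 and 0.499% of replicate 2, on either strand. As background, a Pcdha enhancer downstream of the constant exons, named HS5-1, is known in mice to carry a REST element. The annotation used here does not mark that enhancer, and whether this peak is it was not tested.

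The second lay at chr18:37822576-37822778, in an intron 3164 bases after the Pcdhgc5 start and before the first constant exon of Pcdhg. Its height was 1.66 in replicate 1 and 1.42 in replicate 2 (1.54 ± 0.167, SD, n = 2), at percentiles 56.8 and 61.2 of all peaks. It held 2 matches to the GC box GGGCGG, a word present in the central 200 bases of 36.0% of peaks of replicate 1 and 30.3% of replicate 2. Its footprints, 3 in replicate 1 and 1 in replicate 2, did not share a position. The longer lists added chr18:37824964-37825160 over that first constant exon, 1.17 high in replicate 1 and 0.929 in replicate 2. That site is also at the start of Gm38182. Between the Pcdhgc3 peak and the intronic site, the shorter lists held no peak over 16.1 kb in either library, which included the starts of Pcdhgc4 and Pcdhgc5.

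Within Pcdha, the only peak of the shorter lists was in replicate 2, at chr18:37178490-37178600 between constant exons, at the start of Gm10544. Its height of 0.357 put it at percentile 0.709 of all peaks of that library. Replicate 1 held no peak there in either list. No value was thus shared between libraries inside the Pcdha gene bodies in the shorter lists.

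Downstream of Pcdhg, inside Diaph1, which encodes a formin that assembles actin, both libraries held 4 peaks away from any start. The nearest to Pcdhg, at chr18:37852181-37852420, began 10308 bases after its end and was 3.38 high in replicate 1 and 3.15 in replicate 2 (percentile 86.9 ± 1.2 of all peaks, SD, n = 2). Another at chr18:37883561-37883760 was 3.63 and 3.29 high (percentile 88.5 ± 0.231). For comparison, the Pcdhgc3 peak stood at percentile 84.2 ± 4.04 of all peaks. The 2 between them were lower, at chr18:37877207-37877580 (1.13 in replicate 1 and 1.37 in replicate 2) and chr18:37880201-37880480 (2.07 and 2.54).

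Both high sites held a match to the CTCF core, a pattern of 12 positions with 7 fixed bases, on the minus strand, and a footprint in each library covered all 12 bases of it. That footprint was 29 bases wide in both replicates at the first site, and 25 bases in replicate 1 and 22 in replicate 2 at the second. The core was present in the central 200 bases of 22.0% of peaks of replicate 1 and 19.9% of replicate 2, so a match alone is common. The lower pair held none. In replicate 2 alone, a peak 0.911 high at chr18:37908178-37908307 carried a core on the plus strand under a footprint of 21 bases.

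Member starts carried few footprints: 10 in replicate 1 and 2 in replicate 2. They were at 3 starts in replicate 1 (Pcdhac2 with 2, Pcdhgb7 with 2 and Pcdhgc3 with 6) and at 2 in replicate 2 (Pcdhac2 and Pcdhgc3 with 1 each). Among all protein-coding genes, 54.9% of start windows held a footprint in replicate 1 and 55.1% in replicate 2. At Pcdhgc3 the footprint of replicate 2, at chr18:37806224-37806235, covered the one at chr18:37806227-37806233 in replicate 1, and the others had no counterpart. The only CTCF core in the Pcdhgc3 window was centred 379.5 bases downstream of the start, beyond the peak. Footprints within the peak therefore could not overlap it.

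The GC content of the start windows had a median of 44.9% over members, against 54.7% over all protein-coding genes and 59.4% over other genes with a peak at their start in both libraries. CpG observed over expected, the number of CG pairs over that expected from the C and G content, had a median of 0.564 over members and 0.552 over all protein-coding genes. It was 0.682 in Pcdha, 0.378 in Pcdhb and 0.594 in Pcdhg, beside 0.748 in other genes with a start peak in both libraries and 0.204 in other genes with none in either. Within the band of 0.6 to 0.8, 1 of 21 members had a start peak in both, against 83.9% of other genes. Between 0.4 and 0.6 it was 0 of 21 members, against 55.9% of other genes. Between 0.2 and 0.4 it was 0 of 13, against 14.1%. Between 0.6 and 0.8 lay 12 of the 14 Pcdha genes and 9 of the 21 Pcdhg genes, Pcdhgc3 among them. Between 0.4 and 0.6 lay 2 Pcdha, 10 Pcdhb and 9 Pcdhg genes, and between 0.2 and 0.4 lay 11 Pcdhb genes with Pcdhga12 and Pcdhgc5. Pcdhgc3 had a ratio of 0.797, and the highest among members was Pcdhga11 with 0.864, which had no peak in either list.

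**Figure D3:**
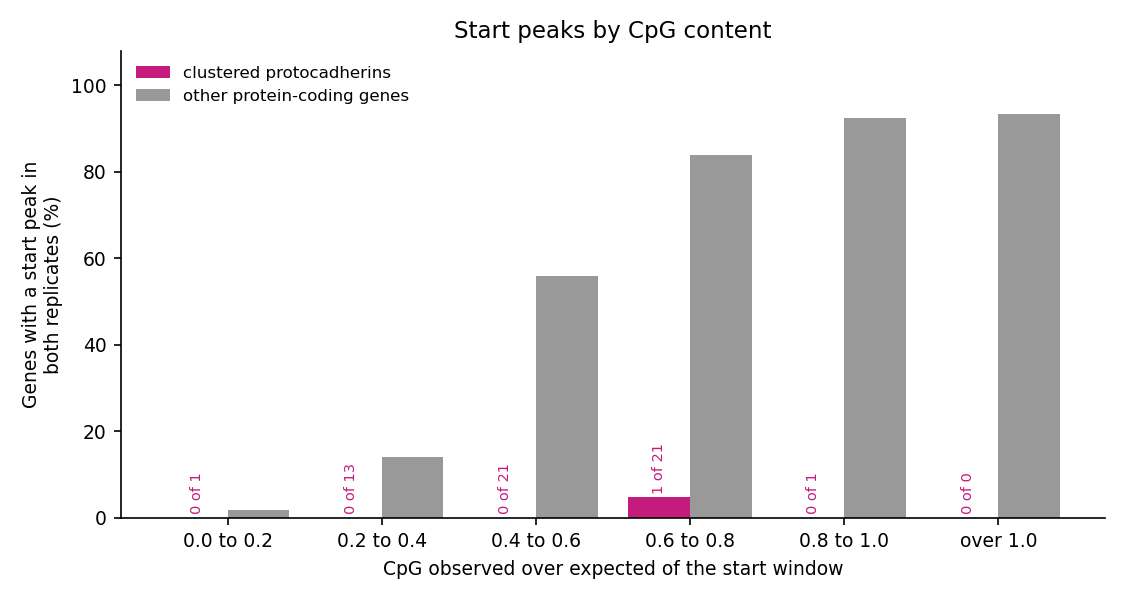
Share of genes with a start peak in both replicates (vertical axis, %) by CpG observed over expected of the start window (horizontal axis), for clustered protocadherins (left bars, with counts) and other protein-coding genes (right bars). In the band of 0.6 to 0.8 the share was 1 of 21 members, against 83.9% of other genes.

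Similar sequences limit where short reads can be placed, and the members are related in sequence to each other. The share of 36-base words in the start window that occur once in the genome had a median of 98.7% over members (range 72.4% to 100%) and 100% over all protein-coding genes. It was under 90% at 19 members, of which 11 were in Pcdha, 4 in Pcdhb and 4 in Pcdhg. None of these 19 had a start peak in both libraries, against 17.8% of other genes with windows under 90%. The 2 sets are unlike, since 1472 of those 3610 other windows were under 50% and no member window was. Of the 38 members at 90% or more, 1 had a start peak in both, against 57.5% of other genes. For the 8 members with such windows and a CpG ratio of at least 0.6, it was also 1, against 88.5% of other genes. The read length is not given in the sources used here, and with words of 76 bases the median over members was 100%. CAST/EiJ reads were in addition placed on a C57BL/6J reference, and the effect of this on the members was not tested.

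The CTCF core was in 22 of 57 member windows (38.6%), against 25.0% of all protein-coding windows. It was found in 12 of 14 Pcdha genes, 2 of 22 Pcdhb genes and 8 of 21 Pcdhg genes. The match had the strand of the gene in 21 members and the other strand in 2, while over all protein-coding genes the numbers were 3086 and 2883. Inside the gene's own variable exon lay 11 of the 12 matches of variable Pcdha genes and all 10 of variable Pcdhg genes. In 9 of the 12 variable Pcdha genes the centre of a match lay between 190.5 and 255.5 bases downstream of the start. In 6 variable Pcdhg genes it lay between 352.5 and 363.5 bases downstream. Of the Pcdhg genes, 7 of 12 named Pcdhga held the core and 0 of 6 named Pcdhgb. These exons are related in sequence to each other, so the matches are not independent. The C-type genes differed in position, with the core centred at -66.5 bases from the start in Pcdhac1, -333.5 bases in Pcdhac2 and 379.5 bases, on the other strand, in Pcdhgc3. Pcdhgc4 and Pcdhgc5 held none.

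**Figure D4:**
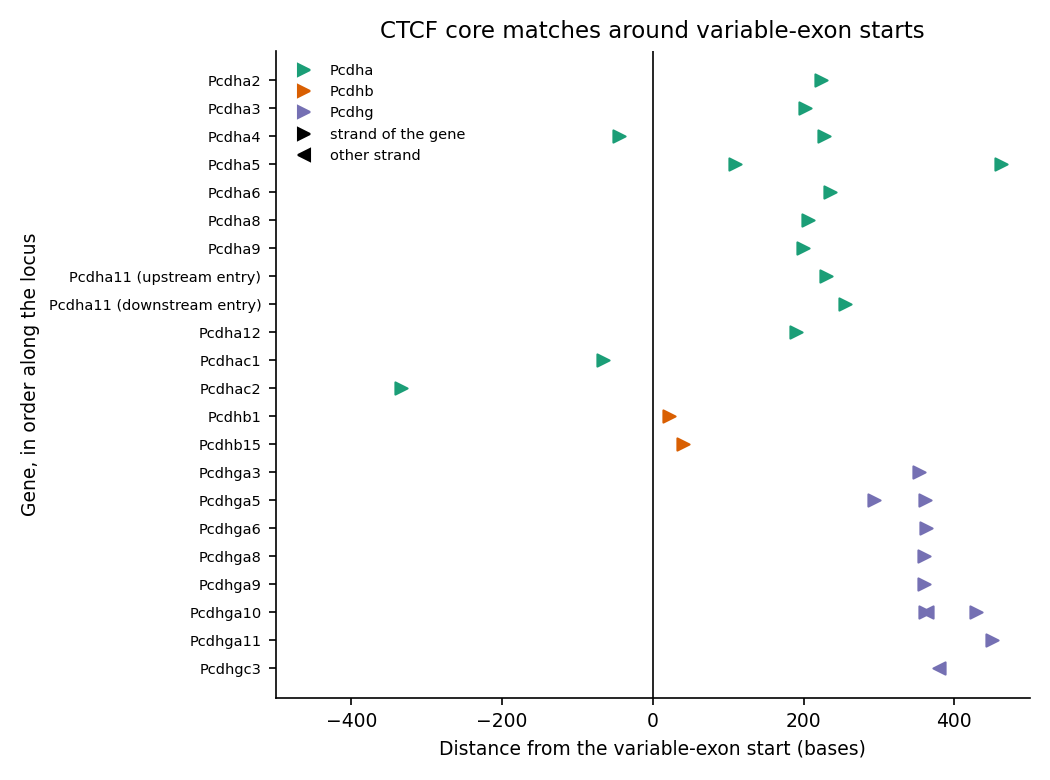
Position of each CTCF core match relative to the variable-exon start (horizontal axis, bases) for the 22 members that hold one, in genomic order (vertical axis). Right-pointing marks have the strand of the gene, and those of 9 variable Pcdha genes line up between 190.5 and 255.5 bases.

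A longer core of 14 positions with 10 fixed bases was in 0 member windows and in 0.916% of all protein-coding windows. The Pcdha8 peak of the longer list of replicate 2, 0.393 high and reaching past the window, held 1 match to the core and 1 to the longer core in its central 200 bases. With 1 mismatch to the core allowed, 55 members (96.5%) and 93.1% of all genes had a match, so that setting did not separate them. The word CGCT, which lies in the conserved element of clustered protocadherin promoters and can overlap the end of the longer core, was in all 57 member windows and in 85.9% of all windows, with a median of 5 matches and 6 matches. All words were searched on both strands, and a match is a description of the letters, not of binding.

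Genes that act on these promoters in other tissues were mostly open in the bladder. Of 18 such regulators, 15 had a start peak in both libraries, which is 83.3% beside the 50.9% of all protein-coding genes. Most of the 18 had a CpG ratio of at least 0.6. In that class 87.8% of genes other than the clustered protocadherins had such a peak, so the regulators did not stand out from it. The cohesin subunit genes Smc3 (start peak percentile 98.0 ± 1.93, SD, n = 2) and Rad21 (81.0 ± 1.48) were among the highest, with Wapl, which releases cohesin from DNA (90.1 ± 2.82). Yy1, which encodes a zinc-finger factor, stood at 92.5 ± 0.193, and Setdb1, which encodes a histone H3 lysine methyltransferase, at 80.8 ± 5.97. Ctcf itself stood at the 67.3 ± 1.72 percentile. Rest, the repressor gene, stood at 49.8 ± 0.821, and Smchd1, which silences clustered protocadherins in mice, at 74.8 ± 3.35. The DNA methyltransferase genes Dnmt3a (37.1 ± 0.412) and Dnmt3b (30.5 ± 12.8) were lower. Dnmt1 and Stag1 had no peak within 500 bases of the 5′ end of the gene, and each had one at another annotated start.

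Related adhesion families were open at a larger share of their members than the clustered genes. Both shares were below the 50.9% of all protein-coding genes. Of 13 non-clustered protocadherin genes, 5 (38.5%) were called at their start in both libraries, led by Pcdh17 (start peak percentile 71.2 ± 6.45, SD, n = 2) and Pcdh10 (67.5 ± 4.29), followed by Pcdh18 (42.4 ± 7.44), Pcdh7 (40.1 ± 0.0273) and Pcdh9 (15.9 ± 0.0725). Of 10 listed cadherin (Cdh) genes, 4 were (40%), led by the epithelial genes Cdh1 (65.5 ± 8.21) and Cdh3 (60.7 ± 0.588). Cdh4 (34 ± 2.96) and Cdh13 (17.3 ± 8.29) followed. The share of the clustered genes was 1.75%. Pcdhgc3, at 70.8 ± 3.10, was within the spread of Pcdh17, Pcdh10 and Cdh1.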

How the data were processed

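For each of 2 bladder libraries the authors derived peak lists, a per-site FDR list and footprints from filtered mm10 alignments, without pooling, per the labels and deposited text. The sources used here do not give the aligner, the callers, their settings or the read length. Peak heights are a signal on an unstated scale, as the authors deposited them. The values are whole multiples of 0.0113 in replicate 1 and 0.00893 in replicate 2 (100% within 0.05 of a step). Absolute depth is unknown, and no interval is given. The per-site FDR values are adjusted p-values that the authors deposited up to 0.05. The deposited footprints all carry the value 0.01, with no strength of their own, so their number, width and position alone were used.

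Peaks were placed on GENCODE M21 genes and the GRCm38 patch 6 sequence, which share coordinates with mm10, with Python 3.11.15, numpy 2.4.6, pandas 2.3.3, numba 0.67.0 and matplotlib 3.10.9. A start window is 500 bases on either side of the 5′ end of the gene, a start peak overlaps it by at least 1 base, and the shorter list is the main one. Positions count from 1. A pair of members share the symbol Pcdha11. Overlaps and word counts were tested on simulated data. Alternatives were the longer list, the higher 50% of peaks, other windows, overlaps, flanks, words and word lengths, and each library alone. Members and gene lists were chosen with earlier results of these data known. Named were members with a start peak, the C-type genes, the first and last of each subfamily, the 3 lowest in FDR without a peak, the 10 highest peaks and the shared peaks within the clusters, and up to 5 genes of each other list; Pcdhgb8 and further genes were chosen after their values were seen. Pcdh21 matched no annotated symbol. Sequences of the members are not printed here.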

Additional observations from a re-analysis of the deposited data

How the results depend on the processing

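Of 54 alternative values over 11 results, 43 stayed within the limits set for them, 1.5 times for a count and 1 SD for a level. The number of members with a start peak in both libraries, 1, was 2 in the longer list and 1 in each library alone. It was also 1 in the higher 50% of peaks and at windows of 250 and 1000 bases. Among all protein-coding genes, 48.4% had a start peak in both at 250 bases and 53.0% at 1000 bases. In the longer list, 8 non-clustered protocadherins had a start peak in both and the Pcdhgc3 percentile was 76.9. With the higher 50% of peaks, 2 of the listed Cdh genes remained. With flanks of 100 kb, 9 peaks away from member starts were shared in place of 24. Members with a CTCF core numbered 12 in windows of 250 bases (21.1%, against 15.2% of all protein-coding genes). They numbered 0 with the longer core and 55 with 1 mismatch. From each library alone, footprints at member starts ranged from 2 to 10, and members with a base at an FDR of 0.05 or less from 4 to 6. Leaving out a library gave 15 regulators, 5 to 7 non-clustered protocadherins and 4 to 6 Cdh genes. The Pcdhgc3 percentile was then 68.6 to 72.9, and peaks away from member starts numbered 25 to 30. Each of 2 values lies within 1 SD of their mean, so that percentile could not leave its limit when a library was left out. No paired analysis was possible because there is 1 group. The cause of these changes was not tested. With 2 libraries of unknown depth, a closed start means that no peak was listed, not that no cell had an open promoter.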
